A study of Homo sapiens with 2 samples.

Results

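The genes described here are 32 genes of the hypoxia-inducible factor (HIF) pathway: the HIF subunits, the enzymes and adaptor that sense oxygen and mark HIF for destruction, and genes that HIF is known to induce outside glycolysis. They were chosen by symbol, with earlier results of these data known. A gene counts as measured where a line of the deposited expression table carries exactly that symbol. Of the 32 genes, 30 had such a line, out of 12936 named genes and 14952 loci in the table. ARNT and EGLN2 had no line of their own and occur only in loci shared with other genes.

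Both samples are A549, an established human lung adenocarcinoma line, grown in DMEM with serum. One library came from cells labelled as a MYOCD knockdown, with the sample title MYOCD-/-, and the other from cells labelled wild type. MYOCD encodes myocardin, a coactivator of serum response factor in muscle cells. The treatment field lists Dox for 72 h for both samples, whereas the series text calls the wild type untreated, so an effect of Dox and one of the knockdown cannot be told apart from these labels. How the knockdown was made, whether the cells are 1 clone, and at which oxygen level the cultures grew, the sources used here do not give.

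Each group had 1 library. No value below therefore has a replicate error, no difference was tested, and every statement compares these 2 libraries and not the conditions. Levels are given in RPKM, a read number divided by transcript length and by library size, and the depth of the libraries is unknown. MYOCD itself had 0.400 RPKM in the knockdown library and 0.881 RPKM in the wild type library, 45.5% of the wild type value at a level near the lower end of the table. No locus lay below 0.652 RPKM in both libraries, so at this knockdown value MYOCD could be listed only as lower. Its values are therefore no check of the knockdown. All 11 A549 and epithelial markers looked up had a line, with summed levels of 8167 RPKM in the knockdown library and 8325 RPKM in the wild type library. These markers were uneven. ALDH1A1, the highest, had 2374 RPKM in the knockdown and 2370 RPKM in the wild type library. EPCAM, the lowest, had 2.15 RPKM in the knockdown and 2.24 RPKM in the wild type library. Of 6 fibroblast markers COL1A1 alone had a line, with 2.41 RPKM in the knockdown and 2.76 RPKM in the wild type library. Of 5 leukocyte markers 2 had a line. CD14 had 3.30 RPKM in the knockdown and 3.13 RPKM in the wild type library, above EPCAM in both. ITGAM had 0.962 RPKM in the knockdown and 0.561 RPKM in the wild type library. Of 5 endothelial markers 0 had a line.

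HIF is a transcription factor made of an oxygen-labile alpha subunit, HIF1A or EPAS1 (HIF-2 alpha), and the stable beta subunit ARNT. With oxygen present, the EGLN prolyl hydroxylases modify the alpha subunit, VHL then binds it and it is degraded, while HIF1AN hydroxylates an asparagine and blocks coactivator binding. When oxygen falls, the alpha subunit accumulates as protein and the dimer binds hypoxia response elements, whose core reads ACGTG or GCGTG. Since this control acts on the protein, the message of HIF1A or EPAS1 is not a measure of HIF activity, and the oxygen sensor EGLN3 is itself a HIF target.

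The promoters of 4 genes are shown because they belong to the genes with the lowest values in the knockdown library, relative to the wild type library, and to the one with the highest, among genes for which a sequence was used here. CA9, ANKRD37 and GYS1 were lower and PLOD2 was higher. Each is the RefSeq window (GRCh38.p14) from 250 bases before to 50 bases after the start site, written in the direction of the gene. Capitals mark ACGTG or GCGTG on either strand, so that CACGT and CACGC are the same words read from the other strand. The windows are chr9:35673678-35673977 (plus strand) for CA9, chr4:185396591-185396890 (plus strand) for ANKRD37, chr19:48993260-48993559 (minus strand) for GYS1 and chr3:146161135-146161434 (minus strand) for PLOD2.
CA9: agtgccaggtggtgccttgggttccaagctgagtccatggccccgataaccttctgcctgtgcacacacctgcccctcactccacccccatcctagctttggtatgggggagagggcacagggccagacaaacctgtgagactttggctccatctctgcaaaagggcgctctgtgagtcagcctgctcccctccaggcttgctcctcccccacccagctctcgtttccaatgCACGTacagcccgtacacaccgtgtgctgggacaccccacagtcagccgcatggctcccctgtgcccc
ANKRD37: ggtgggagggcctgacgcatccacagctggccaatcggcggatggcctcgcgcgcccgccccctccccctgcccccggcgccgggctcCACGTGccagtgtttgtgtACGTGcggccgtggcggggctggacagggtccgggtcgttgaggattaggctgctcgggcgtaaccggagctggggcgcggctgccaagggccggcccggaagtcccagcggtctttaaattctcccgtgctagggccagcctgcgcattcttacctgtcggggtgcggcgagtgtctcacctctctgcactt
GYS1: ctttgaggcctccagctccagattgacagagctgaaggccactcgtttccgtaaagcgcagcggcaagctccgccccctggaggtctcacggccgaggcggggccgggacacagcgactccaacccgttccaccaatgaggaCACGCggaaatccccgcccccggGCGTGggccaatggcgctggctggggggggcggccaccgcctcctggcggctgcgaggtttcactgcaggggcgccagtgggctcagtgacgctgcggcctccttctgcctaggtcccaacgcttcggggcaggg
PLOD2: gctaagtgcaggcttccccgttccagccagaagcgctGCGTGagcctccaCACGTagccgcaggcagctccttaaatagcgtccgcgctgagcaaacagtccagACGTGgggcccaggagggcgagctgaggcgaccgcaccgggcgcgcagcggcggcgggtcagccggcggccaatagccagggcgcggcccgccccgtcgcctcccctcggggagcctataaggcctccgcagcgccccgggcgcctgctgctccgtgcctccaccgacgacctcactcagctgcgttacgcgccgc

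The CA9 window holds a single such word, whose first base lies 18 bases before the start site, with ACGTG on the minus strand. In ANKRD37 the words begin 162, 161 and 143 bases before the start site, and the first and second of them are the overlapping strands of CACGTG. GYS1 holds GCGTG alone, once on each strand, at 108 and 85 bases before the start site. PLOD2, the highest of the 30 genes, carries the words too, at 213, 200 and 146 bases before the start site.

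RefSeq windows were found for 25 of the 32 genes, and the first listed window of each was searched. VHL, VEGFA, STC1, LOXL2, ANKZF1, BNIP3L and NDRG1 were not searched. ACGTG stood on either strand in 14 of the 25 windows (56%), against 21.6% of the first windows of 27305 annotated genes. With GCGTG added, the counts were 20 of 25 (80%) and 48.4% of all windows. Many of these genes were chosen as known HIF targets, and the 27305 genes were not limited to expressed ones. The higher shares therefore describe the choice of genes and are not a result of these libraries. The words were found both in genes that were lower and in genes that were higher in the knockdown library. Among searched genes that averaged 1 RPKM or more, the 12 with ACGTG had a median log2 change of -0.16 and the 10 without it a median of -0.22. This split does not separate genes with a core word from genes without one. In the set without ACGTG, PLOD1, EPAS1, ADM, HIF1A, CA12 and GYS1 hold GCGTG. TMEM45A, P4HA2, HIF1AN and EGLN3 hold neither word. Several of the lowest genes are in neither set. NDRG1 (-0.97) and STC1 (-0.82) were not searched, and ANKRD37 (-0.83), which holds ACGTG, averaged less than 1 RPKM. All of these words are matches of letters, and binding of HIF was not measured.

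**Figure D1:**
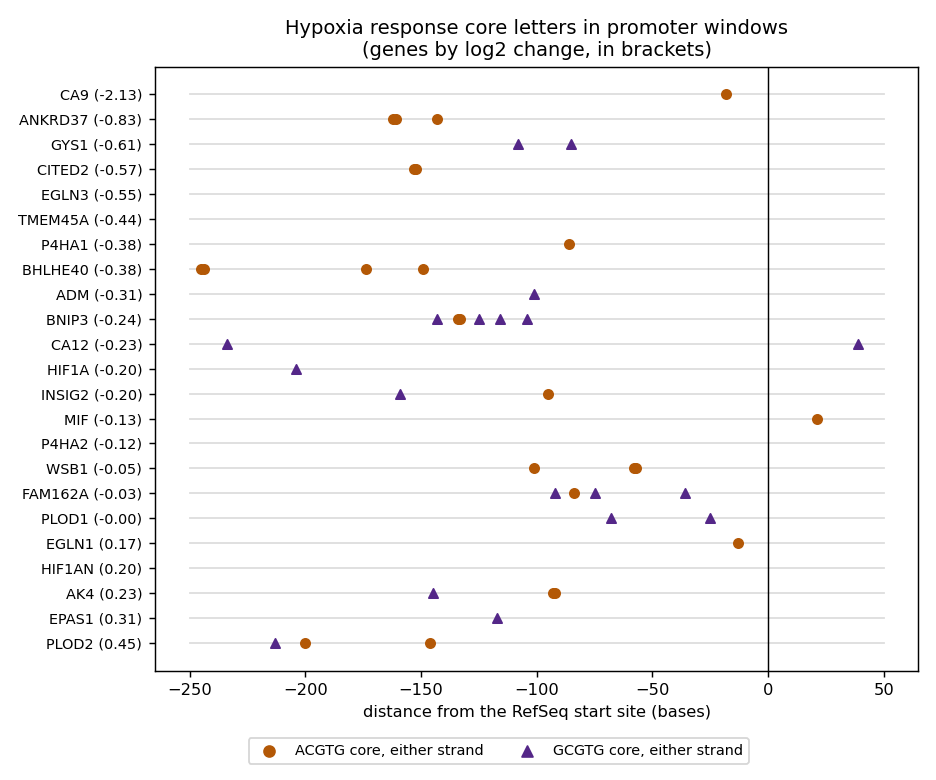
Position of ACGTG (circles) and GCGTG (triangles), on either strand, in the promoter windows of 23 genes, as distance in bases from the RefSeq start site, with genes ordered by log2 change of the MYOCD knockdown over the wild type library (in brackets). CA9, at the top, has its only word 18 bases before the start site, and PLOD2, at the bottom, has 3 words.

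As a group, these genes were mostly lower in the knockdown library. A log2 change here compares knockdown with wild type RPKM after 1 is added to each, so that differences of low genes come out smaller than they are, and counts cover genes that averaged 1 RPKM or more over both libraries. That minimum kept 29 of the 30 genes and left out ANKRD37, which is counted only where all 30 genes or the promoter windows are. The median log2 change was -0.23 over the 29 genes, beside 0.01 over all 12158 genes tested. Of the 29 genes, 22 were below 0 (75.9%), whereas 47.9% of all genes tested were. These genes were chosen with earlier results of these data known. The contrast with all genes is therefore a description of the chosen genes in these libraries, not a test.

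The size of most differences was small. Among the 29 genes, 4 (13.8%) were lower in the knockdown library by 1.5-fold or more, namely CA9, NDRG1, STC1 and GYS1, beside 3.2% of all genes tested. Of 9378 protein-coding genes that hold no short RNA gene, 2.77% were. CA9 alone was at least 2-fold lower, a size that 0.724% of all genes tested reached. No gene among the 29 was at least 1.5-fold higher, and 1.65% of all genes tested were. A further 8 genes were between 1.2- and 1.5-fold lower (27.6%, beside 10.9% of all genes), 14 lay within 1.2-fold of equality (48.3%, beside 73.5%), and 3 were between 1.2- and 1.5-fold higher (10.3%, beside 10.7%). GYS1, at -0.61, lay just inside the 1.5-fold rule, and CITED2 and EGLN3, at -0.57 and -0.55, just outside it.

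**Figure D2:**
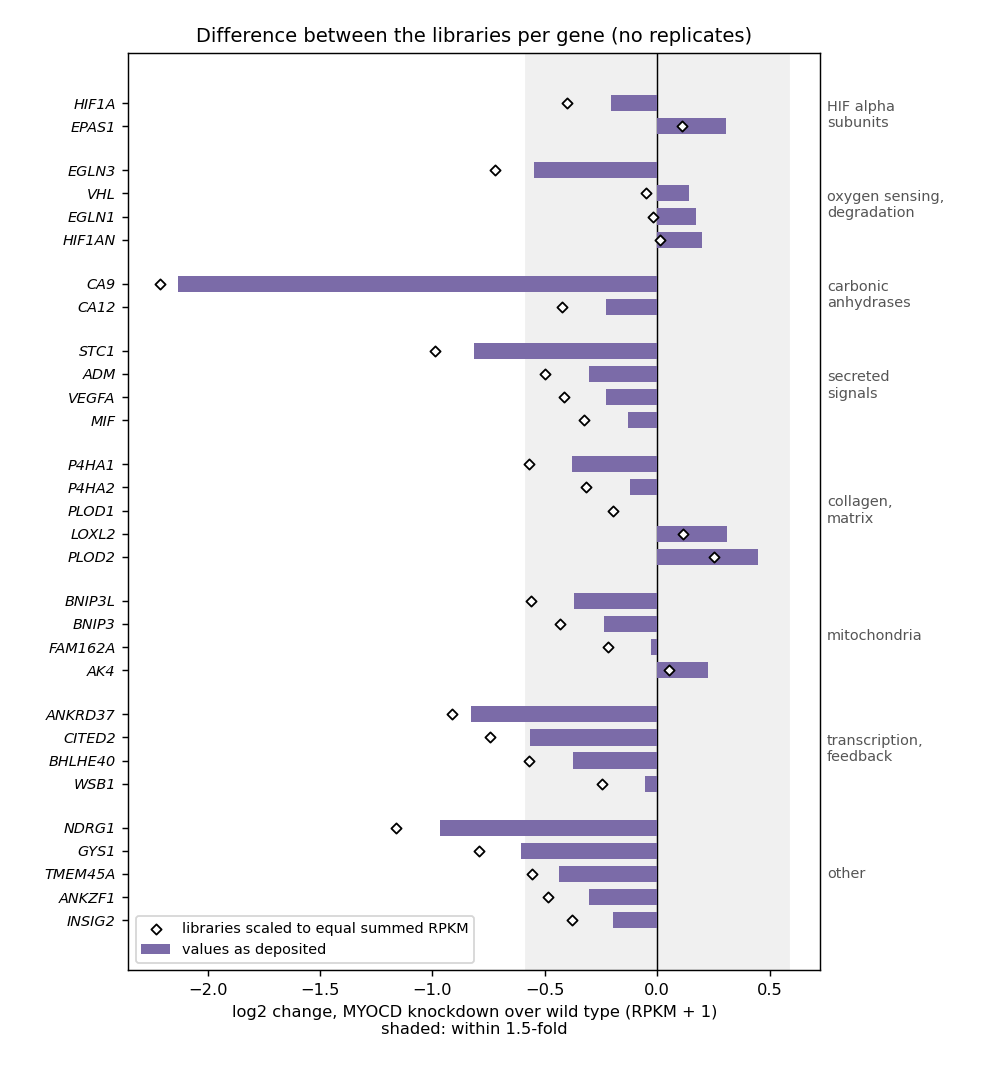
Log2 change per gene, MYOCD knockdown over wild type, on RPKM + 1, grouped by role, with bars for the values as deposited, diamonds for the libraries scaled to equal summed RPKM, and shading for differences within 1.5-fold. CA9 (-2.13) and NDRG1 (-0.97) reach farthest to the left, PLOD2 (0.45) farthest to the right, and the diamonds of VHL and EGLN1 fall below 0 where their bars are above it.

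The scaling of the libraries matters for genes near 0 and for the share of genes below 0. RPKM summed to 1.17e+06 in the knockdown library and to 1.02e+06 in the wild type library, and unnamed loci made up 49.5% of the knockdown and 42.3% of the wild type total. Scaling both libraries to the same sum over all loci moved the median of all genes tested to -0.17 and that of the 29 genes to -0.41. It put 24 of the 29 genes below 0 (82.8%), beside 78.1% of all genes. These shares lay much closer together than those as deposited, 75.9% and 47.9%. The same scaling over named loci alone left 22 of 29 genes below 0 (75.9%), beside 49.2% of all genes.

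Some values carry the limit of overlapping annotation. Exons of 13 of the 30 genes overlap exons of a gene on the other strand in GENCODE 29, and 5 of the 15 overlapping genes had a line under that symbol. These were NDUFB8 beside HIF1AN, PNMA2 beside BNIP3L, WDR5B beside FAM162A, UFSP2 beside ANKRD37 and GLB1L beside ANKZF1. NDUFB8 and UFSP2 were above the genes they overlap. NDUFB8 had 146.4 RPKM in the knockdown and 167.4 RPKM in the wild type library. Its part in the HIF1AN value was not tested. On the same strand, exons of LOXL2 overlap those of ENTPD4, exons of HIF1A those of AL137129.1 and exons of MIF those of AP000350.4. In addition, HIF1A, EGLN1 and EGLN3 each have 1 pseudogene named after them.

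The alpha subunits were both well expressed and differed in opposite directions. HIF1A, annotated on chromosome 14 from 61695513 to 61748259 on the plus strand (GENCODE 29, GRCh38), had 86.0 RPKM in the knockdown library and 99.3 RPKM in the wild type library, a log2 change of -0.20. EPAS1, annotated on chromosome 2 (plus strand) from 46293667 to 46386703, had 50.2 RPKM in the knockdown library and 40.4 RPKM in the wild type library, a log2 change of 0.31, or 0.11 with equal sums. The ratio of EPAS1 to HIF1A within a library, which does not depend on scaling, was 0.584 in the knockdown and 0.407 in the wild type library. HIF1A thus had the higher message level per length in both libraries. Neither gene passed the 1.5-fold rule. The only locus naming ARNT, the shared partner, also names CTSK, a lysosomal protease, and that locus had 10.8 RPKM in the knockdown library and 12.9 RPKM in the wild type library.

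Among the oxygen sensing genes, EGLN3 stood apart from the rest. EGLN3, a hydroxylase known to be induced by HIF, had 6.18 RPKM in the knockdown library and 9.50 RPKM in the wild type library (log2 change -0.55). EGLN1, the main hydroxylase of HIF1A under normal oxygen, had 27.5 RPKM in the knockdown and 24.3 RPKM in the wild type library, 0.17 as deposited but -0.02 with equal sums. The searched EGLN1 window holds ACGTG 13 bases before the start site, whereas the EGLN3 window holds neither core word. A part of HIF in the difference between EGLN1 and EGLN3 was not tested. The ratio of EGLN1 to EGLN3 within a library was 4.44 in the knockdown and 2.55 in the wild type library, so the balance of these sensors at the message level differed by 1.74-fold.

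VHL, the substrate adaptor of the ubiquitin ligase that destroys HIF alpha, had 25.5 RPKM in the knockdown library and 23.0 RPKM in the wild type library, a log2 change of 0.14 that became -0.05 with equal sums. HIF1AN, the asparagine hydroxylase, had 16.8 RPKM in the knockdown library and 14.5 RPKM in the wild type library, 0.20 as deposited and 0.01 with equal sums. Relative to each other these regulators were nearly constant, with a VHL to HIF1AN ratio of 1.52 in the knockdown and 1.59 in the wild type library. EGLN2, a further hydroxylase, occurs only in a locus that also names MIA and RAB4B, which had 71.5 RPKM in the knockdown and 74.8 RPKM in the wild type library.

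**Figure D3:**
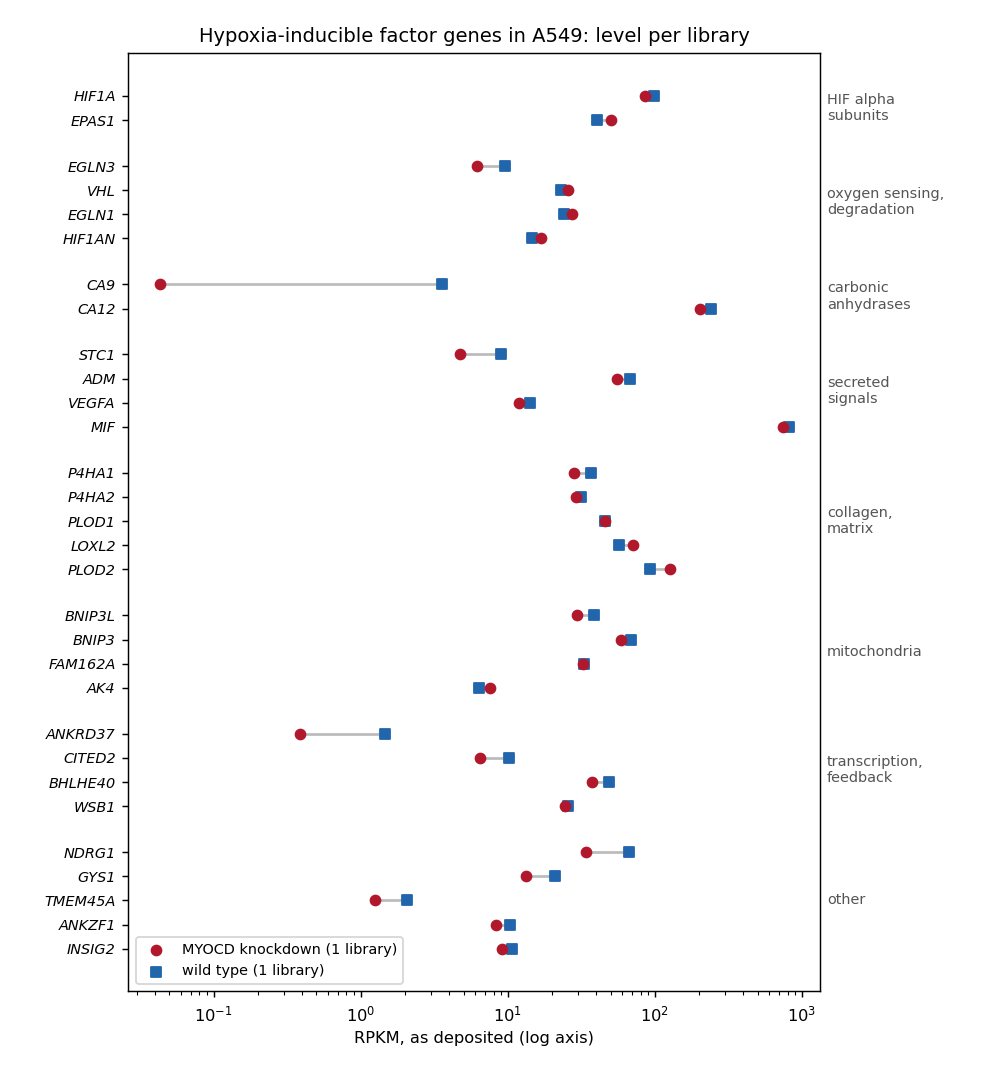
RPKM of the 30 genes in the MYOCD knockdown library (circles) and the wild type library (squares) on a log axis, grouped by role, with 1 library per group and no error bars. Levels run up to 742 RPKM in the knockdown and 812 RPKM in the wild type library for MIF, and the pair of CA9 lies farthest apart, at 0.0431 and 3.57 RPKM.

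The carbonic anhydrases help tumour cells export acid, and CA9 is a standard marker of hypoxia whose known response element lies beside its start site. CA9 had 0.0431 RPKM in the knockdown library and 3.57 RPKM in the wild type library, which left 1.21% of the wild type value and gave a log2 change of -2.13. On this scale 0.304% of all genes tested were as low or lower. The size depends on the pseudocount, since CA9 was at -4.68 with 0.1 and at -0.765 with 5, where NDRG1 was lower at -0.89. The knockdown value of CA9 is close to 0, the gene entered the counts through its wild type level, and without read counts the precision of this pair is unknown. CA12, another membrane carbonic anhydrase, was the second most abundant of the 30 genes, with 204 RPKM in the knockdown library and 239 RPKM in the wild type library (log2 change -0.23). Exons of ARHGEF39 overlap those of CA9 on the other strand in GENCODE 29, and since use of strand is not given, reads of the pair may not be told apart. No line carries the symbol ARHGEF39.

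The secreted factors were all lower in the knockdown library, by unequal amounts. STC1, stanniocalcin, a secreted glycoprotein hormone, had 4.70 RPKM in the knockdown library and 9.04 RPKM in the wild type library (log2 change -0.82), 52.0% of the wild type value. ADM, the vasodilator peptide adrenomedullin, had 54.9 RPKM in the knockdown library and 68.1 RPKM in the wild type library (-0.31). VEGFA, the main angiogenic growth factor of this response, had 11.999 RPKM in the knockdown library and 14.2 RPKM in the wild type library (-0.23). STC1 was the only one of these past 1.5-fold. MIF, a cytokine and the most abundant of the 30 genes, had 742 RPKM in the knockdown library and 812 RPKM in the wild type library (-0.13).

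The collagen and matrix enzymes did not move together. Prolyl 4-hydroxylases stabilise the collagen triple helix, lysyl hydroxylases prepare collagen for cross-linking, and lysyl oxidases form the cross-links. P4HA1, a catalytic subunit of prolyl 4-hydroxylase, had 28.0 RPKM in the knockdown library and 36.7 RPKM in the wild type library (log2 change -0.38), and its paralog P4HA2 had 28.9 RPKM in the knockdown and 31.5 RPKM in the wild type library (-0.12). PLOD1, a lysyl hydroxylase, had 45.8 RPKM in the knockdown library and 45.9 RPKM in the wild type library. PLOD2, the lysyl hydroxylase of collagen telopeptides, had 127.5 RPKM in the knockdown library and 93.2 RPKM in the wild type library (0.45), the highest log2 change of the 30 genes and still positive, at 0.25, with equal sums.

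LOXL2, an extracellular lysyl oxidase, had 71.1 RPKM in the knockdown library and 57.0 RPKM in the wild type library, 0.31 as deposited and 0.12 with equal sums. The ratio of PLOD2 to PLOD1 within a library was 2.78 in the knockdown and 2.03 in the wild type library, and that of PLOD2 to P4HA1 was 4.55 in the knockdown and 2.54 in the wild type library. The ratio of P4HA1 to P4HA2 was 0.969 in the knockdown library, near equality, and 1.16 in the wild type library. With 1 library per group and unknown depth, a change in the order of these paralogs cannot be read from these ratios. Exons of both genes also overlap exons of a gene on the other strand. P4HA2 holds a microRNA gene, MIR6830, on its own strand, the only one of the 30 genes found to hold a short RNA gene.

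The genes of mitochondria and mitophagy differed modestly. BNIP3 and BNIP3L are outer membrane receptors that hand mitochondria to autophagy. BNIP3L had 29.7 RPKM in the knockdown library and 38.7 RPKM in the wild type library (log2 change -0.37). BNIP3 had 58.6 RPKM in the knockdown library and 69.3 RPKM in the wild type library (-0.24). This value is uncertain because 39 annotated pseudogenes bear its name. Within each library BNIP3 was the higher of the pair, by 1.97-fold in the knockdown and 1.79-fold in the wild type library.

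FAM162A, a mitochondrial protein linked to hypoxic cell death, had 32.3 RPKM in the knockdown library and 32.9 RPKM in the wild type library, nearly equal as deposited. AK4, an adenylate kinase of the mitochondrial matrix, had 7.58 RPKM in the knockdown library and 6.33 RPKM in the wild type library, 0.23 as deposited and 0.05 with equal sums. AK4 was the only gene of this group above 0. It too has named pseudogenes, 6 in GENCODE 29, and is uncertain for that reason.

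The transcriptional and feedback genes were all lower. CITED2, which competes with HIF for the coactivators p300 and CBP, had 6.52 RPKM in the knockdown library and 10.1 RPKM in the wild type library (log2 change -0.57). BHLHE40, a repressor induced by hypoxia and active in the clock, had 37.1 RPKM in the knockdown library and 48.5 RPKM in the wild type library (-0.38). WSB1, a ubiquitin ligase adaptor reported to act on VHL, had 24.6 RPKM in the knockdown library and 25.5 RPKM in the wild type library (-0.05). None of these reached 1.5-fold after 1 RPKM was added, although the plain ratio of CITED2, wild type over knockdown, was 1.55, and CITED2 passed the rule with equal sums (-0.74).

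ANKRD37, an ankyrin repeat protein and direct HIF-1 target, had 0.389 RPKM in the knockdown library and 1.47 RPKM in the wild type library. That is 26.6% of the wild type value and a log2 change of -0.83, but the mean of the libraries fell under 1 RPKM, so the gene is in none of the counts of genes by log2 change. No locus lay below 0.652 RPKM in both libraries, so at this knockdown value ANKRD37 has a line through its wild type value. UFSP2 overlaps its exons on the other strand and had 7.36 RPKM in the knockdown library and 7.13 RPKM in the wild type library. The share of UFSP2 reads in the ANKRD37 value was not tested.

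The remaining effectors were all lower in the knockdown library. NDRG1, a stress-responsive protein often used as a hypoxia marker, had 33.9 RPKM in the knockdown library and 67.2 RPKM in the wild type library, 50.4% of the wild type value, a log2 change of -0.97. Only 0.798% of all genes tested were as low or lower, and unlike CA9 this gene was abundant in both libraries. GYS1, the muscle-type glycogen synthase, had 13.4 RPKM in the knockdown library and 20.9 RPKM in the wild type library (-0.61).

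TMEM45A, a membrane protein induced by hypoxia, had 1.25 RPKM in the knockdown library and 2.05 RPKM in the wild type library (-0.44 with the pseudocount, although the plain values stand at 61.2%). ANKZF1, which releases stalled peptides from ribosomes, had 8.25 RPKM in the knockdown library and 10.4 RPKM in the wild type library (-0.31). INSIG2, which retains the sterol sensor SCAP in the endoplasmic reticulum, had 9.19 RPKM in the knockdown library and 10.7 RPKM in the wild type library (-0.20). After 1 RPKM was added these last genes stayed within 1.5-fold, whereas TMEM45A was at -0.67 with a pseudocount of 0.1.

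Level and difference were not tied in a simple way among the 30 genes. At 50 RPKM or more in both libraries were 7 genes, and these ran from -0.31 for ADM to 0.45 for PLOD2. That range is partly set by the bound on both libraries. The bound left out NDRG1 (-0.97), with 33.9 RPKM in the knockdown and 67.2 RPKM in the wild type library. EPAS1 (0.31), with 50.2 RPKM in the knockdown and 40.4 RPKM in the wild type library, was left out too. At 5 RPKM or less in both libraries were 3 genes, CA9, ANKRD37 and TMEM45A, and all of them were lower in the knockdown library. Between those ends lay NDRG1, STC1 and GYS1. No locus lay below 0.652 RPKM in both libraries, and the knockdown values of CA9 and ANKRD37 were below that. With such knockdown values these genes could be listed only as lower, so their direction is not a finding about low genes.

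**Figure D4:**
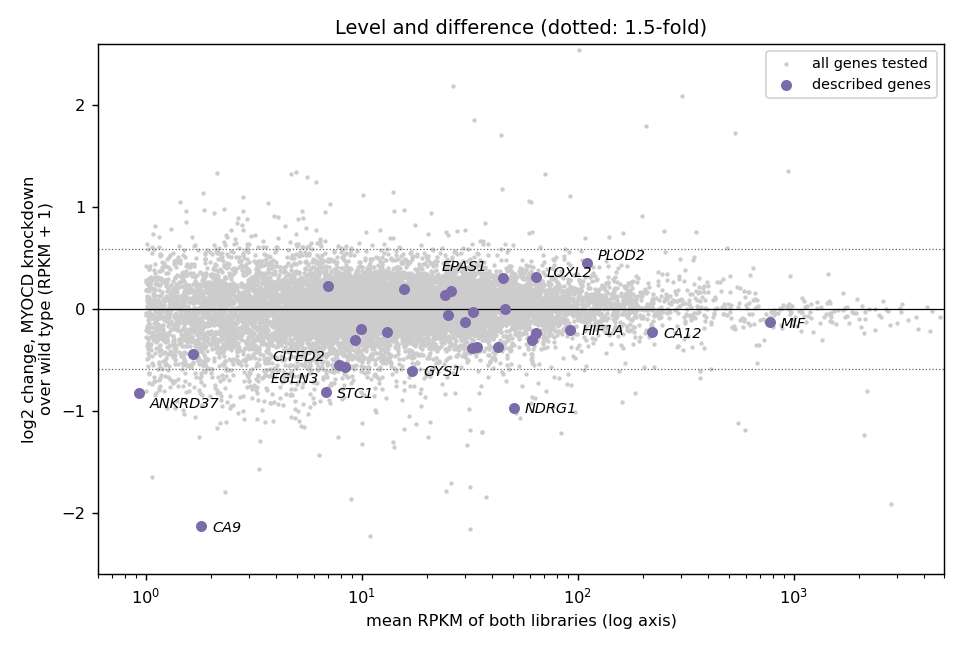
Log2 change, MYOCD knockdown over wild type on RPKM + 1, against the mean RPKM of both libraries (log axis), for all 12158 genes tested (grey, those within the axes) and the 30 described genes (purple), with dotted lines at 1.5-fold. NDRG1 (-0.97) lies below most genes of its level, CA9 (-2.13) and ANKRD37 (-0.83) lie at the low end of expression, and MIF, the most abundant, is at -0.13.

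Other genes of the pathway were described from lists made with earlier results of these data known. HIF degradation and coactivator genes, such as cullin and deubiquitinase genes, p300 and CBP, numbered 22 after the same minimum. Their median log2 change was -0.06, with 14 below 0 (63.6%, beside 47.9% of all genes tested). Past 1.5-fold were 0 in either direction, beside 3.2% of all genes tested that were lower and 1.65% that were higher. The lowest were USP20, a deubiquitinase, with 2.85 RPKM in the knockdown and 4.52 RPKM in the wild type library, followed by KDM3A, a histone demethylase induced by hypoxia, with 10.7 RPKM in the knockdown and 13.6 RPKM in the wild type library. The highest were HSP90AA1, a chaperone that stabilises HIF1A, with 1077 RPKM in the knockdown and 858 RPKM in the wild type library, followed by PPP2CA, a phosphatase subunit, with 97.3 RPKM in the knockdown and 86.7 RPKM in the wild type library.

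Other HIF targets, among them PFKFB3 and PFKFB4, which regulate glycolysis, had a median of -0.31 over 27 genes. Of these, 22 were below 0 (81.5%, beside 47.9% of all genes tested). At least 1.5-fold lower were 6, beside 3.2% of all genes tested, and at least 1.5-fold higher was 1, beside 1.65%. The lowest were ANGPTL4, a lipoprotein lipase inhibitor, with 10.5 RPKM in the knockdown and 38.6 RPKM in the wild type library, followed by C7orf68 (now HILPDA), a lipid droplet protein, with 33.9 RPKM in the knockdown and 69.8 RPKM in the wild type library. The highest, at log2 changes of 0.70 and 0.56, were CCND1, cyclin D1, with 172.9 RPKM in the knockdown and 105.7 RPKM in the wild type library, followed by PPP1R3C, a glycogen-targeting phosphatase subunit, with 4.93 RPKM in the knockdown and 3.04 RPKM in the wild type library. CCND1 is also induced by many other signals.

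Glycolytic hypoxia genes had a median of -0.25 over 19 genes, with 17 below 0 (89.5%, beside 47.9% of all genes tested). At least 1.5-fold lower were 3, beside 3.2% of all genes tested, and at least 1.5-fold higher were 0, beside 1.65%. ALDOC, an aldolase, had 0.492 RPKM in the knockdown and 4.17 RPKM in the wild type library, a pair that resembles CA9 in its low level. Like CA9, ALDOC entered the counts through its wild type level. SLC16A3, the lactate exporter MCT4, had 34.4 RPKM in the knockdown and 73.3 RPKM in the wild type library. At the other end PFKP, a phosphofructokinase, had 308 RPKM in the knockdown and 297 RPKM in the wild type library. PKM2, the symbol for pyruvate kinase, had 1132 RPKM in the knockdown and 1117 RPKM in the wild type library. With equal sums the medians of the 3 lists, in the order given, were -0.24, -0.50 and -0.44, beside -0.17 for all genes tested. Differences between the lists were not tested.

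**Figure D5:**
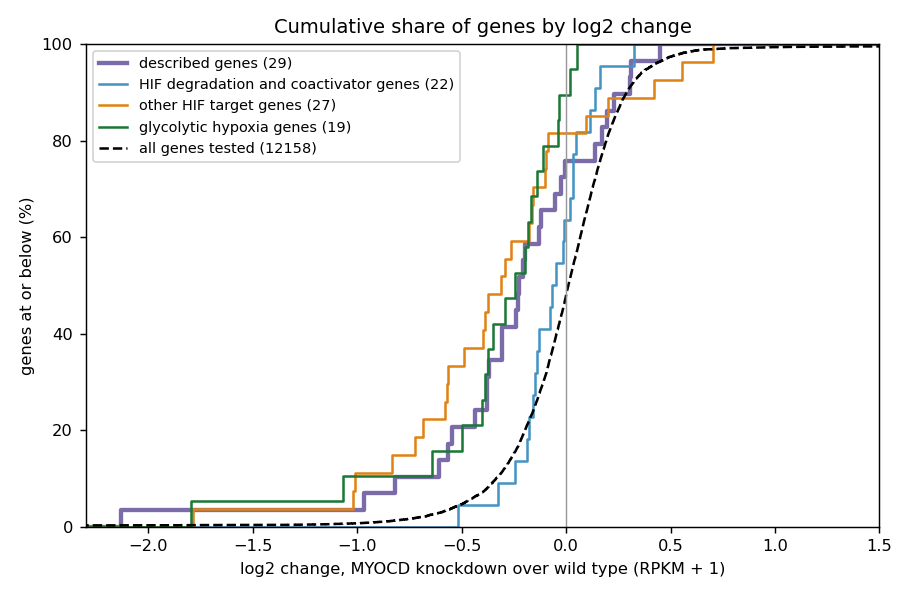
Cumulative share of genes (%) by log2 change, MYOCD knockdown over wild type on RPKM + 1, for 29 described genes, 22 HIF degradation and coactivator genes, 27 other HIF target genes, 19 glycolytic hypoxia genes and all 12158 genes tested (dashed). The described genes cross 0 at 75.9%, the glycolytic genes at 89.5%, the other HIF targets at 81.5%, the degradation and coactivator genes at 63.6% and all genes at 47.9%.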

How the data were processed

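RNA-seq of 2 A549 libraries was used, 1 per group. The authors deposited RPKM. Per the submitters' processing notes, GRCh38.p12 and BDGP5 (a fly build) were among the inputs, as were Cufflinks 2.2.1 and TopHat2 2.0.10, with no role stated. The sources used here give no annotation, read filter or use of strand. No locus lay below 0.652 RPKM in both libraries. Depth is unknown, since the table has no read numbers, and no interval was set.

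Loci with no gene name (12.8%) were left out and lines with the same symbol summed. A difference is the log2 ratio of knockdown to wild type after adding 1 RPKM to both, over genes averaging 1 RPKM or more, with a size rule of 1.5-fold. No test was run. Overlapping genes, pseudogenes and short RNA genes inside came from GENCODE 29, and promoters and their coordinates from RefSeq (GRCh38.p14). The genes and lists were chosen with earlier results of these data known. All 32 genes are named, with the 2 highest and 2 lowest of each further list; 1 gene of a further list is not reported here and is left out of its counts. Promoters were printed for the 3 lowest genes and the 1 highest that had a window used here and at least 5 RPKM in 1 library or a 1.5-fold difference. The alternatives concerned the pseudocount, filter, scaling, symbols on several lines and overlapping genes. Calculations used Python 3.11.15, numpy 2.4.6 and pandas 2.3.3 and were tested on simulated data.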

Additional observations from a re-analysis of the deposited data

How the results depend on the processing

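With 1 library per group there is no replicate error, and a median was taken as moved when it shifted by 0.1 or more on the log2 scale. In every alternative that gave the value, the median log2 change of the HIF pathway genes stayed below 0, and 0 genes were at least 1.5-fold higher in each alternative that gave that count. The median moved to -0.414 with equal sums over all loci, where the median of all genes also moved, to -0.169. The count at least 1.5-fold lower, 4 as reported, was 7 with a pseudocount of 0.1 (beside 5.06% of all genes), 2 with a pseudocount of 5 (1.03%), which by construction enlarge or shrink the differences of low genes, and 1 with a 2-fold rule (0.724%). It was 6 with equal sums over all loci (6.66%), where EGLN3 and CITED2 passed the rule. The count below 0, 22 of 29 as reported, was 12 of 17 when genes with exons overlapping another gene on the other strand were left out, an alternative chosen after seeing the data, as were leaving out genes with named pseudogenes (19 of 24) and leaving out CA9 (21 of 28, with 3 genes at least 1.5-fold lower). With equal sums, VHL and EGLN1 changed sign. Leaving out P4HA2, which holds a short RNA gene, gave 21 of 28. No paired analysis was possible because each group has 1 library and the labels give no replicate numbers. Unknown depth limits the genes at a few RPKM, CA9, ANKRD37 and TMEM45A among them.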
